A study of Drosophila melanogaster with 8 samples.

Results

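The heads of Drosophila melanogaster males were compared with those of parallel controls on day 10 of a drug regime, at the end of feeding with gabapentin, on the 4 arrays of that day out of 8 in the series. Unmated Oregon-R wild type males, 3 to 4 days old at the start, ate food with pentylenetetrazole (8 mg/ml) during the first 7 days, followed by food with gabapentin (16 mg/ml) during the last 3. Their controls were of the same strain, sex and age and stayed on normal food for the same 7 and 3 days. Vials held 30 flies at the start, and each of the 4 arrays set RNA from a pool of treated heads against RNA from its own pool of control heads, so a value describes a pool and not a fly. The other 4 arrays of the series, taken on day 14 after 4 further days on normal food, entered only the shared estimate of the spread and 1 comparison at the end. For 3 of those 4 arrays the labels name the second drug as ETH in 1 line, an abbreviation they do not explain.

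Pentylenetetrazole is a convulsant that blocks the chloride channel of GABA-A receptors, and GABA is the main inhibitory transmitter of the insect brain. Gabapentin is an anticonvulsant that in mammals binds the alpha2-delta subunit of voltage-gated calcium channels, a subunit that brings the channel to presynaptic membranes. The fly head holds brain, retina, antennae, fat body, some muscle and cuticle, so RNA of the whole head mixes all of these. No group of the series received pentylenetetrazole alone or gabapentin alone, so the 2 drugs cannot be told apart here.

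The arrays were spotted with cDNA clones and hybridised with 2 dyes at once, and each value is a log2 ratio of the 2 dyes at a spot. On arrays 1 and 2 the treated RNA carried Cy5, and on arrays 3 and 4 it carried Cy3. The sign of arrays 3 and 4 was turned so that a value above 0 stands for more signal in treated heads on every array, and each array was set to a median of 0. This direction is a reading of the labels and is not settled, because the labels name the dye of each RNA but neither the order of the ratio nor any turning of swapped arrays ahead of deposit. "Lower" and "higher" below refer to this reading, and the values with the deposited signs left alone are given where they bear on a gene. The arrays carried 12929 to 19719 values each, and their deposited medians ran from -0.83 to 0.08. Features with exactly 1 gene symbol were averaged per gene, which gave 5071 genes, and 6241 features without 1 symbol were kept singly and are not named. Of these 11312 genes and features, 6644 had values on all 4 arrays and 4668 on 3. Per the labels, the 4 arrays are biological replicates.

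The arrays of the same dye orientation went together and those of opposite orientation did not. Across all genes and features the Pearson correlation was 0.39 between arrays 1 and 2 and 0.15 between arrays 3 and 4. Between orientations it was -0.03 for arrays 1 and 3, -0.38 for 1 and 4, -0.03 for 2 and 3 and -0.40 for 2 and 4. When a local median along the order of features on the array was subtracted, which is called centring by position below, these values were 0.15 and 0.18 within orientations and ran from -0.10 to -0.07 between them. The mean of arrays 1 and 2 correlated with the mean of arrays 3 and 4 at a Pearson r of -0.34 and a Spearman rho of -0.34 over the 6644 genes and features with 4 values. Genes are not independent replicates, and the values of 1 array share its dyes and its drift with position, so no p-value is attached. Neighbouring features within an array, taken as pairs of spots, had Spearman correlations of 0.65 to 0.77 and a median absolute difference of 0.170 to 0.243. Between arrays the median absolute difference was 0.339 to 0.578. That was taken from turned and centred values averaged per gene, so the 2 ranges are not of like measures.

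**Figure D1:**
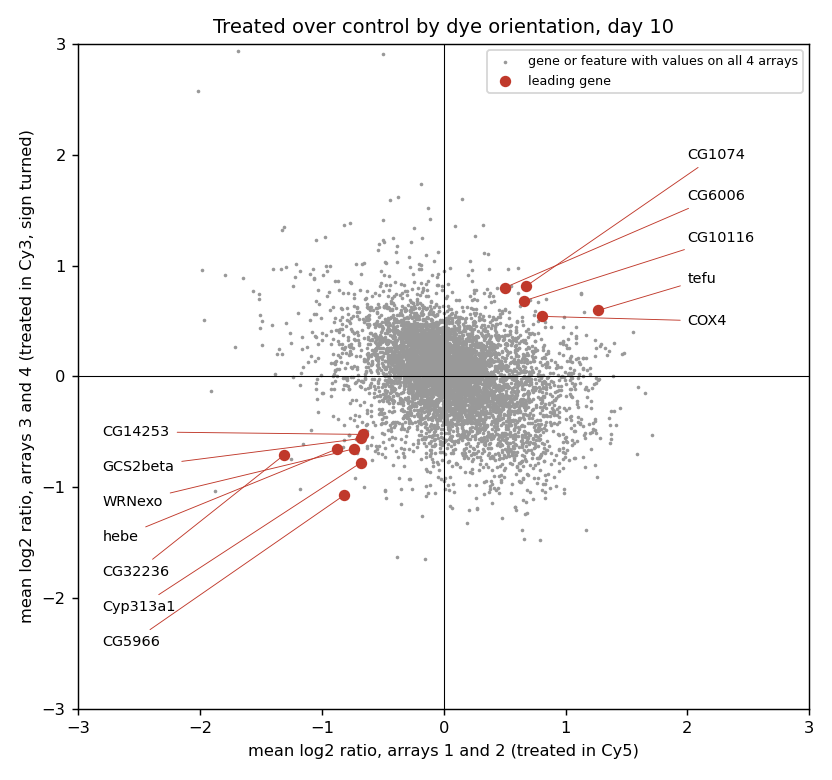
Mean log2 ratio of treated over control on arrays 1 and 2 (horizontal axis, treated RNA in Cy5) against arrays 3 and 4 (vertical axis, treated RNA in Cy3, sign turned), for 6644 genes and features with 4 values. The cloud slopes downward (Pearson r of -0.34), and the leading genes that have all 4 values (red, named) lie in the lower left and upper right corners because they were chosen for 1 sign on every array.

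No gene or feature differed between treated and control heads by the test used. Of 11312 genes and features, 0 (0%) passed limma's moderated test at an adjusted p under 0.05, and the lowest adjusted p was 0.995. At an unadjusted p under 0.05 there were 481 (4.25%), of which 273 (2.41%) were lower and 208 (1.84%) higher. These counts depended on which arrays entered. Without array 4, which leaves array 3 alone with treated RNA in Cy3, they were 1588, 442 lower and 1146 higher. The balance of directions turned there, with 0 past the threshold and a lowest adjusted p of 0.110. On the Cy5 arrays alone, with 10788 tested, they were 1719, 617 lower and 1102 higher. On the Cy3 arrays alone, with 7692 tested, they were 976, 559 lower and 417 higher. With a term for the dye in the model the count was 704, 386 lower and 318 higher. One sign on all 4 arrays was shown by 662 of 6644 (9.96%), 297 (4.47%) lower and 365 (5.49%) higher, and by 301 of 2977 named genes (10.1%). Both criteria were met by 198 genes and features. The middle of the distribution was narrow, with 5% of means below -0.42 and 5% above 0.44, around a median of 0.03 and with a median standard error of 0.201.

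The same counts were larger with the deposited signs. Then 2498 of 11312 (22.1%) had an unadjusted p under 0.05 and 1676 of 6644 (25.2%) had 1 sign on all 4 arrays, 817 (12.3%) lower and 859 (12.9%) higher, while 0 (0%) passed after adjustment and the lowest adjusted p was 0.0737. After centring by position as well, 1237 had an unadjusted p under 0.05. A signal that follows the dye and not the treatment would have 1 sign on all 4 arrays in that reading, and so would a treatment difference on arrays that had been turned before deposit. These cannot be told apart in the ratios. The mean with deposited signs is given beside most of the genes described below, and none of them passed the test in the turned reading.

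Described first are 10 lower genes, taken by smallest unadjusted p from those below 0 wherever they were measured. They hold a gene of ageing, a cytochrome P450, a DNA exonuclease and an enzyme of protein folding. Each SE below is that of the limma fit to both days, not of the day 10 values alone, and n counts day 10 arrays. The gene hebe, whose overexpression lengthens adult life span in flies, had log2 ratios of -0.86, -0.90, -0.74 and -0.57 on arrays 1 to 4, with a mean of -0.77 ± 0.13 (SE, n = 4). Its 4 values were all below 0, but its 2 spots differed by up to 1.19, on array 4, and the mean was -0.11 with the deposited signs and -0.51 centred by position. Cyp313a1, a member of the cytochrome P450 family of oxidising enzymes, had -1.05, -0.31, -0.83 and -0.73, with a mean of -0.73 ± 0.15 (SE, n = 4). Array 2 was the weakest, the 2 spots of Cyp313a1 differed by at most 0.209 on any array, and the mean turned to 0.05 with deposited signs.

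CG5966, which is predicted to encode a lipase, had -0.89, -0.75, -0.80 and -1.35 on arrays 1 to 4, with a mean of -0.94 ± 0.17 (SE, n = 4). Array 4 was the lowest and the other 3 lay together. WRNexo, an exonuclease related to the Werner syndrome protein, had -0.99, -0.49, -0.82 and -0.49, with a mean of -0.70 ± 0.14 (SE, n = 4). Its 2 spots differed by up to 1.03, on array 2. GCS2beta, the beta subunit of the glucosidase that trims sugar chains of proteins in the endoplasmic reticulum, had -0.88, -0.48, -0.65 and -0.47, with a mean of -0.62 ± 0.15 (SE, n = 4). In both genes arrays 1 and 3, which are of opposite dye orientation, were the lower ones. With the deposited signs CG5966 turned to 0.13, and WRNexo and GCS2beta stood at -0.04 and -0.06.

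The largest lower mean of these leading genes belonged to CG1421, which had no value on array 2. Its log2 ratios were -2.02 on array 1, -1.52 on array 3 and -1.31 on array 4, with a mean of -1.62 ± 0.22 (SE, n = 3), a 3.07-fold lower ratio. Centring by position left it at -1.51, and with deposited signs it turned to 0.27. Gld2, a cytoplasmic poly(A) polymerase, had -1.51, -1.02 and -0.81 on arrays 1, 2 and 4, with a mean of -1.11 ± 0.21 (SE, n = 3), but its 2 spots differed by 4.53 on array 1. The gene lky had -1.18, -1.14 and -0.96 on the same 3 arrays, with a mean of -1.09 ± 0.18 (SE, n = 3). CG32236 had -0.93, -1.69, -0.76 and -0.66, with a mean of -1.01 ± 0.23 (SE, n = 4), and array 2 stood apart from the other 3. The 2 spots of CG32236 differed by up to 2.015, on array 1. CG14253 had -0.66, -0.68, -0.23 and -0.82, with a mean of -0.60 ± 0.14 (SE, n = 4), the smallest of the 10. With deposited signs Gld2, lky, CG32236 and CG14253 stood at -0.57, -0.46, -0.30 and -0.07.

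The matching 10 higher genes included enzymes of DNA repair, a subunit of the respiratory chain and a lipid flippase. The DNA damage kinase gene tefu, the fly ATM, had 1.74 on array 1, 0.79 on array 2, 0.67 on array 3 and 0.52 on array 4, with a mean of 0.93 ± 0.21 (SE, n = 4). Array 1 was the highest, without it the mean was 0.66, and the spots of tefu differed by up to 1.5 on array 3. It kept its sign in the other reading, at 0.33 with deposited signs. Rrp1, an endonuclease that cuts DNA at sites that have lost a base, had 1.44, 0.73 and 0.73 on arrays 1, 2 and 4, with a mean of 0.97 ± 0.23 (SE, n = 3), and its 4 spots differed by up to 3.07 on array 4. Its mean was 0.48 with deposited signs and 0.94 centred by position.

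COX4, a subunit of cytochrome c oxidase in the respiratory chain, had 1.09, 0.52, 0.83 and 0.26 on arrays 1 to 4, with a mean of 0.67 ± 0.18 (SE, n = 4). Its mean centred by position was 0.23. ATP8A, which moves phospholipids between the leaflets of membranes, had 1.55, 0.40 and 1.31 on arrays 1 to 3, with a mean of 1.09 ± 0.25 (SE, n = 3). Centred by position it stood at 0.13, a smaller share of its mean than for any other of the 20 leading genes. The gene prtp, an endoplasmic reticulum protein that marks dying cells for engulfment by phagocytes, had 0.58, 0.98 and 1.02 on arrays 1, 2 and 4, with a mean of 0.86 ± 0.21 (SE, n = 3). With deposited signs COX4, ATP8A and prtp stood at 0.13, 0.21 and 0.18.

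CG10116 had 0.58, 0.73, 0.82 and 0.54, the narrowest range of the higher genes, with a mean of 0.67 ± 0.15 (SE, n = 4), and turned to -0.01 with deposited signs. CG6006, CG1074 and CG18558 had means of 0.65, 0.74 and 0.83, and with deposited signs the first 2 turned to -0.15 and -0.07 while CG18558 stood at 0.14. The gene mmm had the largest higher mean, 1.13 ± 0.29 (SE, n = 3), from 0.44 on array 1, 1.74 on array 3 and 1.22 on array 4, but it turned to -0.84 with deposited signs, and its 2 spots differed by 3.48 on array 1. All 20 genes had limma adjusted p-values of 0.995.

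**Figure D2:**
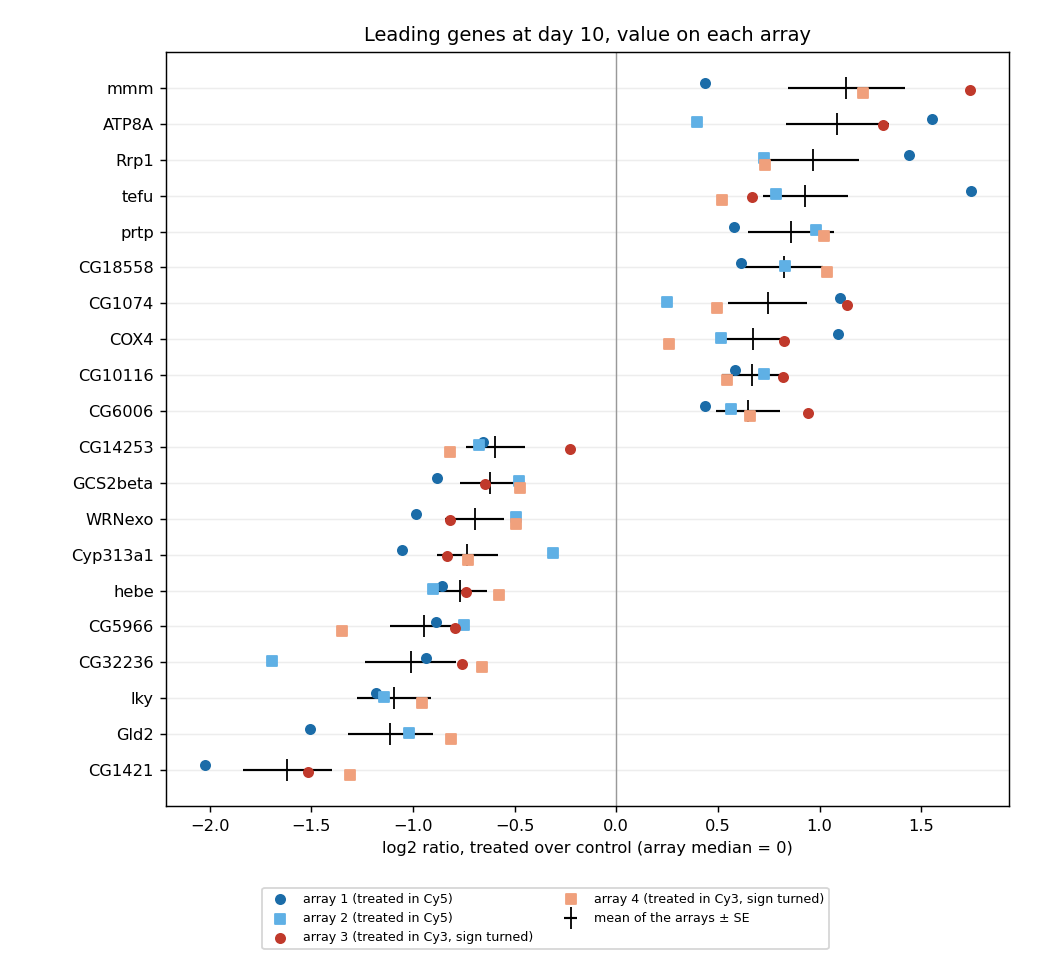
Log2 ratio of treated over control on each day 10 array (coloured points) and the mean with its standard error (black) for the 10 higher and 10 lower leading genes. Points of both dye orientations lie on the same side of 0 by choice, the means run from -1.62 for CG1421 to 1.13 for mmm, and none passed after adjustment.

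Of the genes that the drugs are known to act on or near, those that could be tested showed no difference that passed. The calcium channel genes cac, Ca-alpha1T and stol had no named feature among those analysed here, so they were not examined. Ca-alpha1D was on the array but had fewer than 3 day 10 values, so it was not tested. The alpha2-delta calcium channel subunit gene stj, the fly relative of the protein that gabapentin binds in mammals, had 0.16, 0.19, 0.18 and 0.22 on arrays 1 to 4, with a mean of 0.19 ± 0.13 (SE, n = 4). Every value was above 0, while the mean was -0.01 with deposited signs, in which arrays 3 and 4 have the opposite sign. Without centring of the arrays it was -0.08. The beta subunit gene Ca-beta had -0.14 and 0.04 on arrays 1 and 2 and 0.47 and 0.49 on arrays 3 and 4, with a mean of 0.21 ± 0.17 (SE, n = 4). The 2 orientations did not overlap for Ca-beta, and its mean turned to -0.26 with deposited signs.

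Of the genes that make, break down or bind GABA, 4 of 11 on the list could be tested. The receptor genes Rdl, Grd, GABA-B-R1 and GABA-B-R2, and VGAT, had no named feature among those analysed here and were not examined. GABA-B-R3 and Gat were on the array but had fewer than 3 day 10 values, so they were not tested. Gad1, the enzyme that makes GABA, had 0.71 and 0.71 on arrays 1 and 2 and -0.16 on array 4, with a mean of 0.42 ± 0.21 (SE, n = 3). Lcch3, a subunit of GABA-gated chloride channels, had 1.32, 0.46, -0.08 and -0.59, with a mean of 0.28 ± 0.29 (SE, n = 4), and it was above 0 on both Cy5 arrays and below 0 on both Cy3 arrays. The GABA transaminase gene Gabat, whose enzyme starts the breakdown of GABA, had 0.33, 0.11, -0.35 and -0.29, with a mean of -0.05 ± 0.17 (SE, n = 4). Ssadh, whose enzyme completes that pathway, had -0.61 on array 1, 0.38 on array 3 and 1.36 on array 4, with a mean of 0.38 ± 0.35 (SE, n = 3). Each of these 4 genes had opposite signs on the 2 orientations, which in the reading with deposited signs gives means of 0.53 for Gad1, 0.61 for Lcch3, 0.27 for Gabat and -0.79 for Ssadh. Such a split was common: 1676 of 6644 genes and features with 4 values (25.2%) showed it. Gad1 and Ssadh had only 3 values each. Gabat and Ssadh were named after their values were seen, to complete the 4.

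The other genes were described by 29 lists. These were written with earlier results of these data known, so their counts are not independent support. Over all lists 0 members passed after adjustment, and each list is given by its counts, read against 2.41% lower and 1.84% higher at an unadjusted p under 0.05 and against the overall median, which is the median of 0.03 over everything tested. Because these are ratios from whole heads, fewer cells of a type and less RNA per cell cannot be told apart. A list's members share arrays, dyes and in part their place on the slide, so these counts are a description. Counts and list medians cover tested members. Medians on single arrays cover every list member with a value there, also those with too few values to be tested.

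The DNA damage response list, which holds the kinases that sense broken DNA and the enzymes that repair it, had 19 tested members. Of these 17 lay above the overall median and 2 below it, and the list median was 0.17. At an unadjusted p under 0.05, 3 were higher and 1 lower. Beside tefu and Rrp1, the helicase gene Blm had 0.79, 0.75 and 1.06 on arrays 1 to 3 and -0.06 on array 4, with a mean of 0.63 ± 0.20 (SE, n = 4). The lower one was p53, the transcription factor that acts downstream of the damage kinases, at -0.69, -0.59, -0.64 and -0.24, with a mean of -0.54 ± 0.15 (SE, n = 4). Its 4 values were all below 0, and with deposited signs Blm stood at 0.14 and p53 at -0.10. Blm and p53 were named after their values were seen.

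The list medians on arrays 1 to 4 were 0.43, 0.29, 0.17 and 0.03 for these DNA damage genes, above 0 on each, and array 4 was close to 0. With deposited signs 8 of the 19 lay below the overall median and the list median was 0.12. Centred by position 3 lay below it and the list median was 0.11. The part of dye and position in this pattern was not tested.

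**Figure D3:**
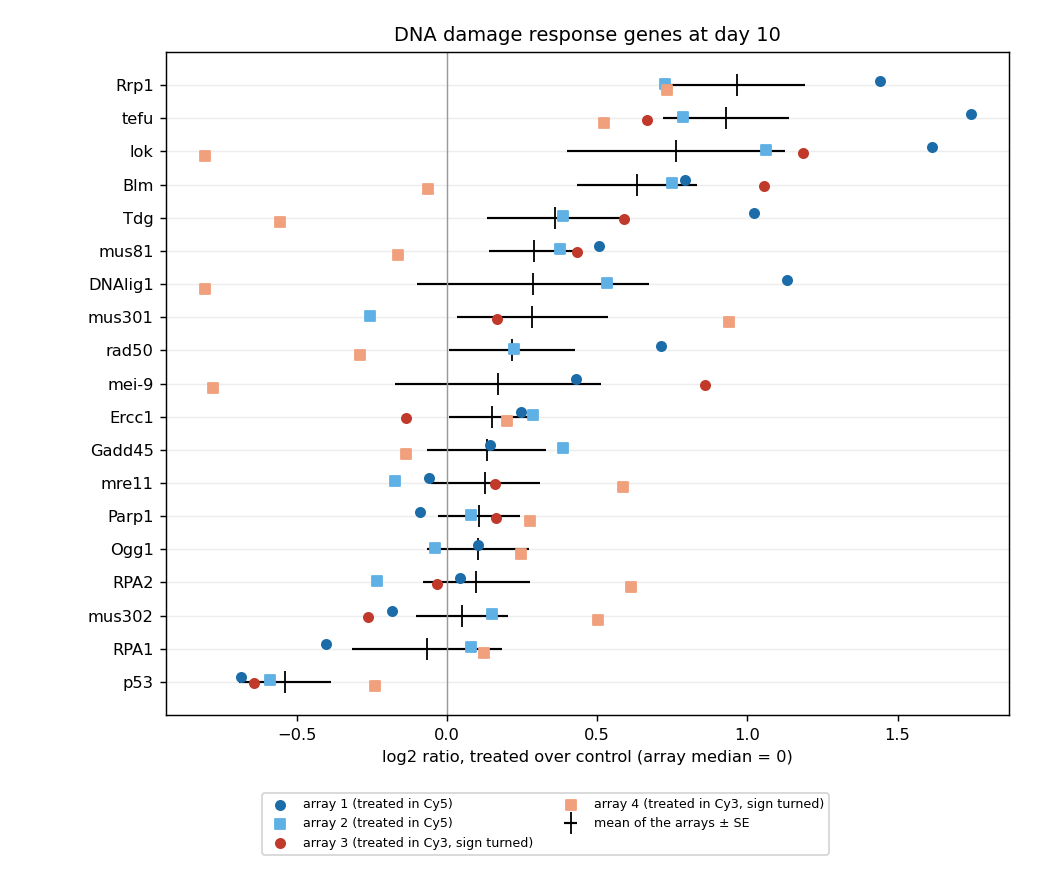
Log2 ratio of treated over control on each day 10 array (coloured points) and the mean with its standard error (black) for the 19 tested members of the DNA damage response list. The means run from 0.97 for Rrp1 to -0.54 for p53, and array 4 lies below 0 for 9 of the 19 members.

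Odorant binding proteins and chemoreceptors, which serve smell and taste in the antennae and mouthparts, had 18 of 22 tested members below the overall median and a list median of -0.14. The medians on arrays 1 to 4 were 0.09, -0.01, -0.12 and -0.18, so arrays of the 2 orientations did not overlap. With deposited signs only 5 of the 22 lay below, and the list median was 0.12. None of its members had an unadjusted p under 0.05. None of the 18 members with 4 values had 1 sign on all 4 arrays, against 9.96% of all genes and features. By position 15 lay below, with a list median of -0.02.

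Immune recognition genes and antimicrobial peptides had 10 of 13 members below the median of all, a list median of -0.17 and 2 members lower at an unadjusted p under 0.05. The medians on arrays 1 to 4 were -0.21, -0.19, -0.09 and -0.14, all below 0. The antifungal peptide gene Drs, a target of the Toll pathway, had -1.20, -0.61 and -1.14 on arrays 1, 2 and 4, with a mean of -0.98 ± 0.29 (SE, n = 3). Its relative Drsl5 had -0.62, -0.40 and -0.40 on arrays 2 to 4, with a mean of -0.47 ± 0.17 (SE, n = 3). With deposited signs the list median turned to 0.03 and 6 of 13 lay below, with Drs at -0.22 and Drsl5 at 0.06.

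The cytochrome P450 list had 31 of 43 members below the overall median and a list median of -0.09, with 3 members lower and 0 higher at an unadjusted p under 0.05. Beside Cyp313a1 these were Cyp28d1, at -1.08, -0.31, -0.26 and -0.46 with a mean of -0.53 ± 0.17 (SE, n = 4), and Cyp310a1, at -1.50, -1.01, 0.47 and -1.97 with a mean of -1.0 ± 0.38 (SE, n = 4). Cyp310a1 was above 0 on array 3 alone, and it was named after its values were seen. Of 29 members with 4 values, 2 were below 0 and 1 above 0 on every array, against 4.47% and 5.49% of all genes and features. With deposited signs 23 of 43 lay below, with Cyp28d1 at -0.17 and Cyp310a1 at -0.25. Among the transferases that act after P450 enzymes in detoxification, 14 of 26 lay below, and Ugt37E1, a glucuronosyl transferase, had -0.75, -1.55 and -0.02 on arrays 1, 2 and 4 with a mean of -0.78 ± 0.28 (SE, n = 3). With deposited signs 14 of the 26 lay below too, and Ugt37E1 stood at -0.76.

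Lists of protein synthesis and energy metabolism also depended on the reading of signs. Cytosolic ribosomal proteins had 14 of 19 members below the overall median and a list median of -0.10, with array 2 at 0.10 and the other arrays from -0.19 to -0.14. With deposited signs 7 of 19 lay below and the list median was 0.02. Glycolysis, the TCA cycle and glycogen had 16 of 23 below, and 4 of its 19 members with 4 values were below 0 on every array against 4.47% of all genes and features. These 4 included ScsbetaA, a subunit of succinyl-CoA synthetase in the TCA cycle, at -0.66, -0.25, -0.56 and -0.58 with a mean of -0.51 ± 0.17 (SE, n = 4), and the glycolytic enzyme gene Eno, with a mean of -0.29 ± 0.14 (SE, n = 4). With deposited signs both turned, to 0.06 and 0.02, and 6 of 23 lay below.

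Oxidative phosphorylation had 22 of 35 members below and 13 above, and COX4, its highest, was the only one with an unadjusted p under 0.05. With deposited signs 14 of the 35 lay below. Mitochondrial ribosomal proteins had 18 of 31 below, with mRpS34 at -0.67 ± 0.20 (SE, n = 4) and mRpS22 at 0.66 ± 0.27 (SE, n = 3) on either side. With deposited signs 18 of the 31 lay below too, mRpS34 turned to 0.08 and mRpS22 stood at 0.37. The proteasome, chaperone and antioxidant lists had list medians from -0.0016 to 0.07, and none of their members had an unadjusted p under 0.05.

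Lists of the nervous system held few small p-values. They are short lists, and only 4.25% of everything tested had an unadjusted p under 0.05, so little can be read from this. Among genes of synaptic vesicle release, Synj, the phosphatase that strips the coat from recycled vesicles, had -0.46, -0.94 and -0.65 on arrays 1, 2 and 4, with a mean of -0.69 ± 0.19 (SE, n = 3). The vesicle priming gene unc-13 had 0.13, 0.32, 0.23 and 0.07, with a mean of 0.19 ± 0.13 (SE, n = 4), and 4 of the 9 members lay below the median of all. With deposited signs 3 of the 9 lay below, with Synj at -0.25 and unc-13 at 0.03. Cyclic AMP signalling had 5 of 7 above, led by Galphas, the G protein subunit that activates adenylyl cyclase, at 1.04, 0.17, 0.36 and 0.12 with a mean of 0.42 ± 0.19 (SE, n = 4). Galphas rested on array 1, without which it was at 0.21, and it stood at 0.18 with deposited signs.

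Cholinergic transmission had 4 of 8 members above, monoamines 6 of 9, neuropeptides 8 of 12, the circadian clock 7 of 10, phototransduction 9 of 13, glutamate transmission 2 of 4, and sodium and potassium channels 3 of 6. Their list medians ran from 0.03 to 0.10, and none of their members had an unadjusted p under 0.05, against 4.25% of everything tested. Of the neuron markers 3 of 5 lay above, and of the calcium channel subunits both tested members did. With deposited signs 4 of the 8 cholinergic, 7 of the 9 monoamine and 5 of the 12 neuropeptide genes lay below. So did 5 of the 10 clock, 4 of the 13 phototransduction, 4 of the 4 glutamate and 5 of the 6 channel genes. Of the neuron markers 3 of 5 lay below in that reading, and both calcium channel subunits did. The clock photoreceptor gene cry was below 0 on every array, with a mean of -0.22 ± 0.16 (SE, n = 4), and turned to 0.01 with deposited signs. The lists of monoamines and of channels were among those whose arrays split by orientation, with both Cy5 arrays below 0 and both Cy3 arrays above. A split by orientation, in either direction, was also shown by 25.2% of single genes and features with 4 values.

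**Figure D4:**
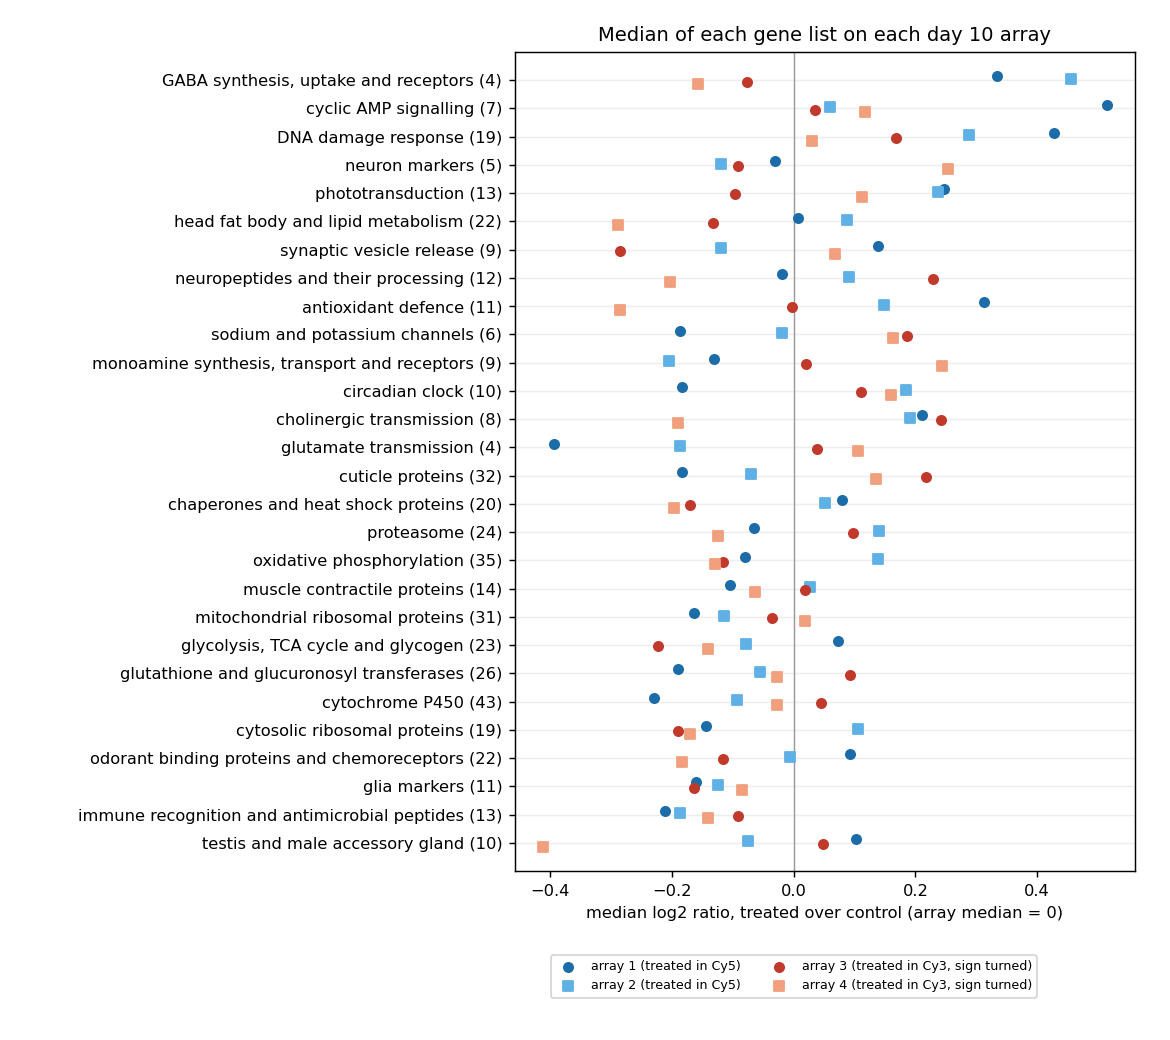
Median log2 ratio of each gene list on each day 10 array, for the 28 lists with at least 4 tested members (number tested in brackets). The points cover every list member with a value on that array, also those with too few values to be tested. The DNA damage response and cyclic AMP lists lie above 0 on all 4 arrays and the glia and immune lists below 0 on all 4. In 8 of the 28 lists both blue points (treated in Cy5) lie on one side of 0 and both red points (treated in Cy3) on the other. Among single genes and features with 4 values, 1676 of 6644 (25.2%) split in this way.

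Lists of tissues gave the following. Glia markers had 7 of 11 members below the median of all and a list median of -0.15, with array medians of -0.16, -0.12, -0.16 and -0.08, all below 0. The glial glutamine synthetase gene Gs2 had -0.15, -0.01, -0.32 and -0.31, with a mean of -0.20 ± 0.15 (SE, n = 4), and it turned to 0.12 with deposited signs and to 0.11 centred by position. Head fat body and lipid metabolism had 10 of 22 below and 12 above, a list median of 0.09 and means of up to 0.56. Its lowest member was the storage protein gene Lsp2, which fat body secretes, at -1.40, 0.06 and -1.41 on arrays 1, 2 and 4. The mean of Lsp2 was -0.92 ± 0.32 (SE, n = 3). Array 2 stood apart from the other 2. Muscle contractile proteins had 9 of 14 below, with the thick filament gene Prm, paramyosin, at -1.44, -0.87, -0.91 and -0.31 and a mean of -0.88 ± 0.25 (SE, n = 4). Cuticle proteins were even, 16 below and 16 above, with Cpr72Ea at 0.79, 0.09, 1.09 and 0.50 and a mean of 0.62 ± 0.19 (SE, n = 4). With deposited signs 6 of the 11 glia, 7 of the 22 fat body, 6 of the 14 muscle and 21 of the 32 cuticle genes lay below. In that reading Lsp2 stood at 0.02, Prm at -0.27 and Cpr72Ea at -0.18, so Lsp2 and Cpr72Ea turned.

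Transcripts of the testis and male accessory gland, organs that are not in the head, had values too. Of 38 genes on that list 23 were on the array and 10 could be tested, 7 below the overall median and 3 above, with a list median of -0.21. Array medians, over 10 to 19 members with a value, were 0.10, -0.07, 0.05 and -0.41. The spermatid gene soti had -0.23, -0.60, -0.47 and -1.12, with a mean of -0.60 ± 0.19 (SE, n = 4), and Acp36DE, a seminal fluid protein needed for sperm storage, had 0.18, -1.19, -0.56 and -0.84, with a mean of -0.60 ± 0.24 (SE, n = 4). With deposited signs 3 of the 10 lay below, the list median was 0.11, and soti and Acp36DE turned to 0.19 and 0.10. Ratios carry no level, so whether these spots held RNA of other organs or unspecific signal was not tested. Of the markers of head tissues, nSyb and Appl for neurons, trp and Arr1 for photoreceptors, Gs2, nrv2 and moody for glia, and Lsp2, apolpp and FASN1 for fat body had at least 3 values, while elav, ninaE and repo had no named feature among those analysed here. Acp36DE and Lsp2 were named after their values were seen.

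Dok and Patsas show how far a mean can depend on the reading of signs, though neither gene passed in either reading. Dok, an adaptor protein of receptor tyrosine kinase signalling, led the lower genes with deposited signs, with a mean of -1.01. In the turned reading its values were -1.02, -1.18, 0.85 and 1.00, the 2 orientations lay on opposite sides of 0, and the mean was -0.09 ± 0.42 (SE, n = 4). Patsas, which encodes a palmitoyltransferase, led the higher genes in the same way, with a mean of 1.08. Its turned values were 1.5, 1.01, -0.50 and -1.32, with a mean of 0.17 ± 0.44 (SE, n = 4). Centred by position, the deposited-sign means were -0.32 for Dok and 0.27 for Patsas. Both were chosen after their values were seen, by the smallest unadjusted p in that reading, where each had an adjusted p of 0.0747 (limma).

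The gene eater, a receptor by which blood cells take up bacteria, was the only named gene to pass under an alternative setting, and it rested on 1 spot. Its values were 8.66 on array 2, 0.66 on array 3 and -0.18 on array 4, with a mean of 3.05 ± 1.70 (SE, n = 3). On array 2, 1 of its 2 spots had a deposited log2 ratio of 16.61 and the other 0.18. With a term for the dye added to the model it passed, at a mean of 4.45 (limma adjusted p = 0.0338, with a range of 0.0338 to 1 over the alternatives). When single values beyond 5 log2 units were left out of that model, 0 of 11312 passed and 706 had an unadjusted p under 0.05. The table held 17 such values at day 10.

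The difference between the days was tested for genes with at least 3 values on each. Of 5187 genes and features 0 (0%) passed by limma, with a lowest adjusted p of 1.00, and 129 (2.49%) had an unadjusted p under 0.05. Each day had its own controls. Drs stood at -0.98 at day 10 and at 0.12 at day 14, a difference of 1.10 ± 0.35 (SE). Its day 14 values were 1.14, -0.07, -0.38 and -0.23, so the day 14 mean was above 0 through array 1 alone. WRNexo stood at -0.70 and 0.03, and Synj at -0.69 and 0.10. On the other side tefu stood at 0.93 and -0.05, a difference of -0.98 ± 0.29 (SE), and COX4 at 0.67 and -0.22, a difference of -0.90 ± 0.23 (SE). Cyp313a1 stood at -0.73 and -0.84 and was below 0 on all 8 arrays. The other genes named by their day difference were the proteasome subunit gene Prosbeta7, at 0.28 and -0.31, and cbc, at -0.30 and 0.34.

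**Figure D5:**
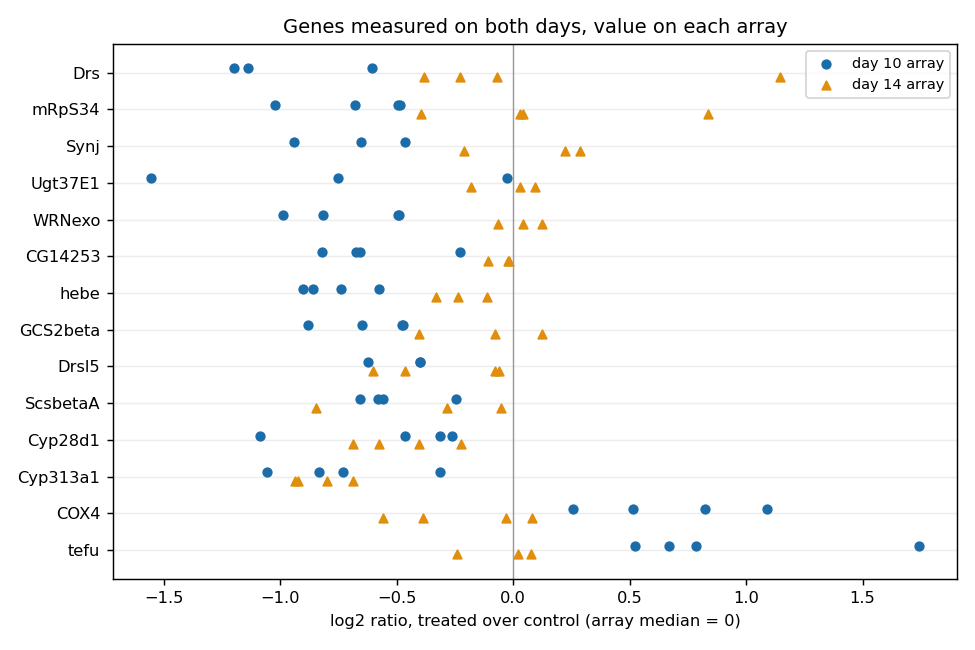
Log2 ratio of treated over control on each day 10 array (blue circles) and each day 14 array (orange triangles) for the 14 genes chosen by the rule that had an unadjusted p under 0.05 at day 10 and at least 3 values on each day. The day 10 points of tefu and COX4 lie above all their day 14 points and those of WRNexo and hebe below them, while Cyp313a1 lies below 0 on all 8 arrays. The genes were chosen for their day 10 values, and no difference between the days passed.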

How the data were processed

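Each deposited value is a log2 ratio of the 2 dyes, which the authors made from GenePix scans and normalized by ratio, per the labels. The sources used here do not give the order of the ratio, nor whether the signs of swapped arrays had already been turned. Of 27648 features, 12430 had no gene symbol in the platform annotation and 102 had more than 1. The remaining 15116 were averaged per gene, 14894 under their current RefSeq symbol and 222 under the older one. Arrays with treated RNA in Cy3 were turned, and each array was centred on its median. Differences were tested with limma 3.58.1 (lmFit and eBayes, R 4.3.3), which used both days' 8 arrays and 1 mean per day. It took genes and features that had at least 3 day 10 values, with adjustment by Benjamini-Hochberg over all 11312. Errors are standard errors of that fit, and the number of arrays limits the precision. The median over features of a gene, centring by position (medians of runs of 576 and then 24 features), filters, a dye term and other alternatives were tried.

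Genes were named by a rule: per direction the 10 with the smallest unadjusted p and 1 sign on every measured array, up to 2 such members of each of 29 lists, 3 per direction by day difference, and genes tied to the drugs. This gave 54 genes, and 10 more were named after their values were seen. The lists, the rule and the genes were chosen with earlier results of these data known. The hand-picked lists are in part incomplete on this array. Scanner files were not analysed here.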

Additional observations from a re-analysis of the deposited data

How the results depend on the processing

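Leaving the swapped arrays as deposited gave 2498 genes and features with an unadjusted p under 0.05 (980 lower, 1518 higher) against 481 (273 and 208), and 1676 with 1 sign on all 4 arrays against 662. In that reading 24 of 64 named genes changed sign: CG1421 0.27, Cyp313a1 0.049, CG5966 0.13, CG10116 -0.013, CG6006 -0.15, CG1074 -0.0695, mmm -0.84, stj -0.012, cry 0.011, Gs2 0.12, Prosbeta7 -0.066, mRpS34 0.083, ScsbetaA 0.058, Eno 0.018, Tm2 0.026, Cpr72Ea -0.18, TwdlF -0.0014, Drsl5 0.059, soti 0.19, Ca-beta -0.26, Acp36DE 0.10, Lsp2 0.025, Gabat 0.27 and Ssadh -0.79. Without centring the median of all was -0.25, 597 had an unadjusted p under 0.05 (586 lower, 11 higher), and stj stood at -0.075, unc-13 at -0.077, Pka-R1 at -0.025, Hnf4 at -0.23, Ca-beta at -0.053 and Patsas at -0.094. Centred by position 695 had an unadjusted p under 0.05, 61 of 64 named genes kept their sign, and Gs2 stood at 0.11, Dok at 0.076 and Gabat at 0.0085. The unadjusted count was 193 among genes with 1 symbol only (fewer were tested), 301 with the day 10 arrays fitted alone, 972 with array weights (Gabat 0.038), 1719 on the Cy5 arrays alone (Ca-beta -0.051, Gabat 0.22) and 976 on the Cy3 arrays alone (Lcch3 -0.33, Dok 0.93, Patsas -0.91). A dye term gave 1 call, eater, and 1 with 826 at an unadjusted p under 0.05 when centred by position too, and deposited signs centred by position gave 1237. Those combinations were chosen after seeing the data. The cause was not tested in any of these.

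Leaving out 1 array at a time gave 0 calls each time and 377 to 1588 with an unadjusted p under 0.05, the latter without day 10 replicate 4 (442 lower, 1146 higher). Named genes that changed sign then were Lcch3 (-0.07 to 0.57), Dok (-0.45 to 0.28), Patsas (-0.27 to 0.67), Gabat (-0.18 to 0.052) and Ssadh (-0.12 to 0.87). The replicate number as a block over both days gave 0 of 5187 past the threshold and 391 with an unadjusted p under 0.05. For 2217 genes and features with values on all arrays of both days, the mean of each day was subtracted. The deviations left on arrays of the 2 days with the same number correlated at 0.03, 0.37, 0.22 and 0.19. By this measure 2 of 4 correlated best with their own number, so the numbers were not taken to pair the arrays. Under every alternative but the dye term, 0 passed at day 10, and 0 passed for the day difference. Signal over background could not be examined.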
